A study of Mus musculus with 8 samples.

Results

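The TGF-beta, activin and myostatin axis was followed in C2C12 cells through 10 genes. They encode ligands of the axis, extracellular binders of these and the follistatin-like protein FSTL1. The genes are Tgfb1, Tgfb2, Tgfb3, Mstn, Inhba, Inhbb, Fst, Fstl1, Fstl3 and Ltbp1. All 12 non-control probes carrying these gene names were taken, out of 55681 probes and 24129 named genes on the array. C2C12 is a mouse myoblast line that fuses into myotubes in culture. The samples were 4 cultures transfected with an siRNA against macroH2A1.1 (written mH2A1.1 in the sample titles) and 4 with a control siRNA, all harvested as myotubes on day 4 of differentiation and read on 1-colour Agilent arrays. MacroH2A1.1 is a splice form of a histone variant whose macrodomain binds ADP-ribose. A treatment label calls the first group a macroH2A knockout, but titles and design name an siRNA, which is followed here. The replicates are called biological, with no word on how the cultures were kept apart.

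TGF-beta ligands are secreted in a latent complex that binding proteins such as LTBP1 tether to the matrix, and they signal through SMAD2 and SMAD3 once released. Activins, which are dimers of the beta subunits encoded by Inhba and Inhbb, and myostatin, encoded by Mstn, use the same SMADs through activin receptors. Follistatin and FSTL3 bind activins and myostatin outside the cell and block them. In muscle, myostatin restrains growth, follistatin promotes it, and TGF-beta holds back myoblast differentiation and drives matrix production.

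With macroH2A1.1 siRNA, 3 of the 9 members that could be tested were lower and 0 were higher when arrays of the same replicate number were compared as pairs. By the same rule 7.94% of all genes were called, 3.87% lower and 4.07% higher. Fstl1 read 60.8% of its level in control siRNA cells, Tgfb1 71.6% and Fstl3 75.1%. Tgfb3, Inhba, Inhbb, Fst, Ltbp1 and Tgfb2 did not pass the test, and Mstn was at or near the background of the array. These 3 calls came from the paired fit: without pairing, 0 of the 9 passed, against 0.0217% of all genes. The unpaired fit was set as the main test and the paired one as an alternative, because the labels state no pairing.

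Of the sequences behind these values, the Tgfb1 and Tgfb2 probes are shown because both genes are close relatives and gave differences of opposite sign. The stretch both share codes for the end of the mature ligand, as known from textbooks and not from an annotation used here. The Tgfb1 probe lies at chr7:26489877-26489936 on the plus strand and the Tgfb2 probe lies at chr1:188449333-188449392 on the minus strand (mm9). Set against each other without gaps, they overlap over 41 bases, of which 28 are identical (68.3%). Capitals mark the identical bases.
Tgfb1 probe: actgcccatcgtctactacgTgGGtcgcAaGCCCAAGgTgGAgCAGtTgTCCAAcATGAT
Tgfb2 probe: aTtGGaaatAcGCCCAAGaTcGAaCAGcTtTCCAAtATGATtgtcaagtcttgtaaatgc

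The promoters of the 3 genes that were lower with pairing are shown since all 3 were lower in the same fit. Promoter windows from RefSeq (GRCm38.p6) matched 8 of the 10 members, and the 250 bases before the gene start were used. Capitals mark GC boxes, GGGCGG on either strand, and the SMAD-binding letters CAGAC on either strand, with overlapping matches counted. The windows lie on the plus strand at chr7:25686752-25687001 for Tgfb1, chr16:37776805-37777054 for Fstl1 and chr10:79777024-79777273 for Fstl3.
Tgfb1 promoter: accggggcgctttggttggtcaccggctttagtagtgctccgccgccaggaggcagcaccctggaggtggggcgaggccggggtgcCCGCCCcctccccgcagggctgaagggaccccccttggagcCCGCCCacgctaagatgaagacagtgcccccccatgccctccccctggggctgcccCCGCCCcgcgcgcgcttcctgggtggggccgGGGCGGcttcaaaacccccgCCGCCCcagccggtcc
Fstl1 promoter: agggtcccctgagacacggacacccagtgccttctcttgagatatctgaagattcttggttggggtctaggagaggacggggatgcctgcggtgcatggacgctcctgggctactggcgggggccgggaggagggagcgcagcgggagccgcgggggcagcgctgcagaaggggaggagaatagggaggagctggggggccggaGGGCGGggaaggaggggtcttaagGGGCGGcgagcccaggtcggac
Fstl3 promoter: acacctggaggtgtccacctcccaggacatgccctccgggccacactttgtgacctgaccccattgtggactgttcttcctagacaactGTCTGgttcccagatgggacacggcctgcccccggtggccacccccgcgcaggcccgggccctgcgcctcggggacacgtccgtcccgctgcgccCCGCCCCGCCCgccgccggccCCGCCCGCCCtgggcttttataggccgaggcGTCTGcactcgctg

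G and C made up 75.2% of the window in Tgfb1, 68.0% in Fstl1 and 71.2% in Fstl3, and also 68.0% in Inhbb, which was not called. The GC box matched 5 times in Tgfb1, 2 times in Fstl1 and 4 times in Fstl3, and it occurs in 32.7% of the 32851 promoter windows of the same length. Among the other members with a window it matched once in Inhbb and in none of Tgfb2, Mstn, Inhba or Ltbp1. The letters CAGAC matched 2 times in Fstl3 and 0 times in Tgfb1 and Fstl1, against 42.2% of all windows with at least 1 match. It also matched 2 times in Tgfb2 and in Mstn and 1 and 2 times in the 2 windows of Ltbp1, and 0 times in Inhba and Inhbb. A match describes these letters and is no evidence of a bound factor.

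Signals below are log2 values relative to the 75th percentile of all probes on the same array, so 0 is the level of that percentile. The share of spots well above background ranged from 46.9% to 49.8% over the 8 arrays, and 0 spots were saturated. The gene of the siRNA target was lower: the Macroh2a1 probe listed for 2 of the 4 transcripts read -0.39 ± 0.55 with macroH2A1.1 siRNA and 1.03 ± 0.16 with control siRNA (SD, n = 4 each), and both probes for all 4 transcripts were lower too, at 50.5% and 46.3% of control. In that order, limma adjusted p over all probes was 0.138, 0.0538 and 0.0538 unpaired and 0.0335, 0.0232 and 0.0232 paired. Which splice forms the first probe reads was not determined. All 8 myotube markers were detected, and 4 of them were higher with pairing, against 4.07% of all genes. Their summed signal, relative to the 75th percentile, was 1680 to 2500 with macroH2A1.1 siRNA and 1430 to 1910 with control siRNA. Of 4 adipocyte markers none could be tested, and 2 of 5 fibroblast markers (Thy1 and Tcf21) and 2 of 4 endothelial markers (Cdh5 and Tek) stayed at background on all 8 arrays. The fibroblast markers Col1a2, Lum and Pdgfra and the endothelial markers Kdr and Pecam1 were well above background on all 8. The summed signal of 5 macrophage markers, most of it from Itgam, was 19.1 to 25.6 with macroH2A1.1 siRNA and 21.6 to 24.3 with control siRNA. Cd68 alone read -1.09, 0.56, 1.07 and -1.58 in macroH2A1.1 siRNA replicates 1 to 4 and -1.91 to -1.18 with control siRNA. Its difference of 1.32 did not pass (limma adjusted p = 0.404 unpaired and 0.091 paired). Csf1r, Adgre1, Itgam and Cd14 differed by -0.15, -0.07, 0.02 and -0.04 and did not pass either. Of 7 tested interferon response genes 5 were higher with pairing, against 4.07% of all genes. Of these, Ifit1, Usp18, Oasl1 and Cxcl10 passed the filter only through the macroH2A1.1 siRNA group. They were well above background on 2, 1, 1 and 3 control arrays, so their control values were partly at background. The count of 5 rests largely on them, so setting it beside the share of all genes is a description only. Ifit3 was well above background on all 8 arrays. The summed signal of the 7 genes was 8.58, 68.6, 51.3 and 4.88 in macroH2A1.1 siRNA replicates 1 to 4 and 3.01 to 6.36 with control siRNA. Most of this sum came from Isg15, which did not pass with pairing (limma adjusted p = 0.0825). In such whole-culture RNA, fewer cells of a type and less RNA per cell cannot be told apart.

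Tgfb1 encodes TGF-beta 1, the member of the family most tied to matrix production. Its log2 signal was 0.66, 0.64, 1.18 and 1.03 in macroH2A1.1 siRNA replicates 1 to 4, against 1.29, 1.24, 1.68 and 1.24 in control siRNA replicates 1 to 4. Every macroH2A1.1 siRNA sample lay below every control sample, although replicate 3 with macroH2A1.1 siRNA came close to the lower controls. Means were 0.88 ± 0.27 with macroH2A1.1 siRNA and 1.36 ± 0.21 with control siRNA (SD, n = 4 each), a difference of -0.48. The limma adjusted p over all 13824 genes was 0.286 in the unpaired fit (SE 0.16) and 0.039 in the paired one (SE 0.09). Within pairs 1 to 4 the differences were -0.63, -0.60, -0.50 and -0.21.

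The Tgfb1 probe is printed 10 times on each array, as is the Tgfb3 probe, which gives a technical error that the other members lack. The SD between spots of 1 array was 0.041 to 0.079 for Tgfb1 and 0.033 to 0.058 for Tgfb3, on the log2 scale. The SD of Tgfb1 between samples, 0.27 with macroH2A1.1 siRNA and 0.21 with control siRNA, was above the SD between spots on every array. Single Tgfb1 spots were apart in pair 1, at 0.76 or less in the macroH2A1.1 siRNA sample and 1.17 or more in the control sample, and likewise in pairs 2 and 3. In pair 4 they overlapped, with spots of up to 1.15 in the macroH2A1.1 siRNA sample and down to 1.13 in the control sample.

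**Figure D1:**
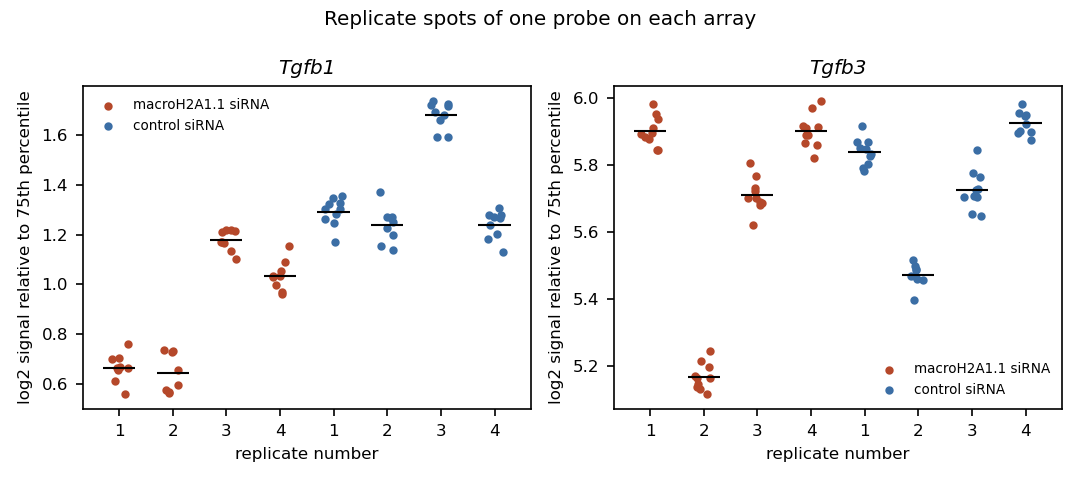
Log2 signal of every replicate spot of the Tgfb1 probe (left) and the Tgfb3 probe (right), outlier spots left out, by replicate number, with macroH2A1.1 siRNA arrays left of control siRNA arrays. Lines are means of an array, and the SD between spots of 1 array is at most 0.079, with Tgfb3 low at 5.17 in macroH2A1.1 siRNA replicate 2 and 5.47 in control replicate 2.

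Tgfb2 encodes TGF-beta 2 and was read by 2 probes. The brighter one gave 4.02, 3.96, 3.96 and 3.64 in macroH2A1.1 siRNA replicates 1 to 4, against 3.57, 3.89, 3.81 and 3.18 in control siRNA replicates 1 to 4. The groups overlapped, and replicate 4 was the lowest sample of both. In all 4 pairs the macroH2A1.1 siRNA sample was the higher one, by 0.45, 0.07, 0.15 and 0.46 on the log2 scale. The difference of 0.28 had a limma adjusted p of 0.579 unpaired and 0.121 paired. The other probe differed by 0.22, with limma adjusted p = 0.738 unpaired and 0.266 paired in a fit over all probes, so both probes pointed the same way.

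Tgfb3 encodes TGF-beta 3. Its log2 signal was 5.90, 5.17, 5.71 and 5.90 in macroH2A1.1 siRNA replicates 1 to 4, against 5.84, 5.47, 5.73 and 5.93 in control siRNA replicates 1 to 4. Replicate 2 was the lowest sample of both groups, and the groups overlapped. The difference was -0.07, with a 95% interval of -0.27 to 0.13 with pairing (limma adjusted p = 0.611).

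Inhba encodes the beta A subunit of activin A. It read 2.86, 3.01, 3.35 and 2.58 in macroH2A1.1 siRNA replicates 1 to 4, against 2.78, 3.52, 3.01 and 2.54 in control siRNA replicates 1 to 4. The groups overlapped over most of their range, and the pairs differed in sign. The difference was -0.01, with a 95% interval of -0.37 to 0.35 with pairing (limma adjusted p = 0.969).

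Inhbb, for the beta B subunit, had the largest SD of the tested members in both groups. It read 3.97, 2.37, 4.14 and 4.10 in macroH2A1.1 siRNA replicates 1 to 4, against 3.60, 2.83, 3.30 and 4.01 in control siRNA replicates 1 to 4. Replicate 2 was the lowest sample of each group. The difference of 0.21 was below the between-sample SD of 0.86 with macroH2A1.1 siRNA and 0.50 with control siRNA, and its 95% interval was -0.31 to 0.73 with pairing (limma adjusted p = 0.549). Without macroH2A1.1 siRNA replicate 2 it was 0.64, and without control replicate 2 it was 0.0079.

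**Figure D2:**
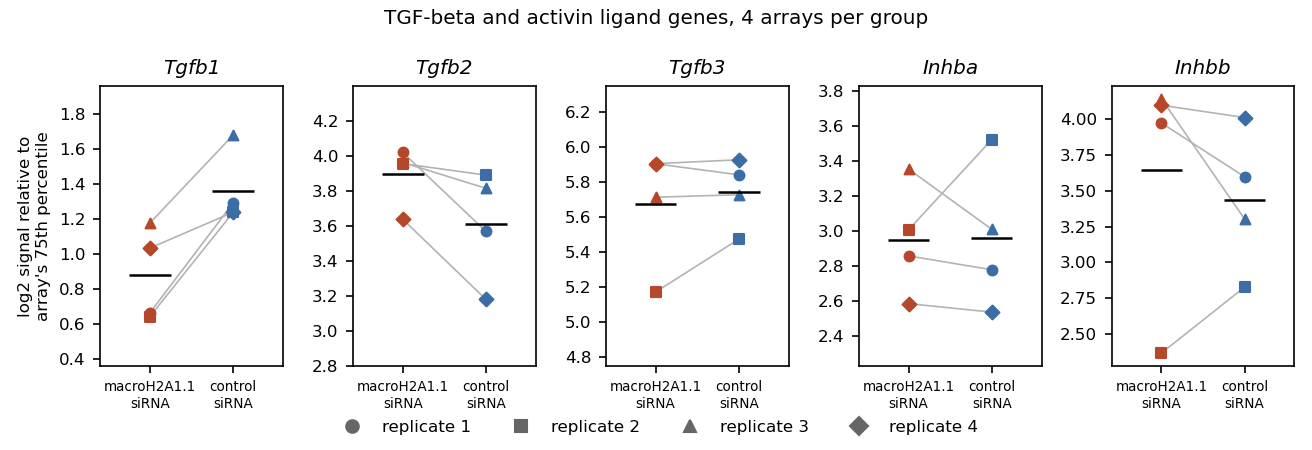
Log2 signal of 5 ligand genes in each sample, macroH2A1.1 siRNA left and control siRNA right, relative to the array's 75th percentile. Symbols mark replicate numbers, grey lines join samples of the same number, and bars are group means, on an axis of its own for each gene. The Tgfb1 groups do not overlap, at 0.64 to 1.18 with macroH2A1.1 siRNA and 1.24 to 1.68 with control siRNA, while the other 4 do.

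Mstn, which encodes myostatin, could not be given a level in control cells. Its spot was set to the software's floor for unmeasurable signals on all 4 control arrays. The processed intensity was 11.6, 8.2, 20.7 and 10.4 in macroH2A1.1 siRNA replicates 1 to 4, against 3.7, 3.3, 3.3 and 3.9 in control siRNA replicates 1 to 4. Only macroH2A1.1 siRNA replicate 3 was well above background, so Mstn did not enter the test. The lowest signals that were well above background on the control arrays averaged -4.48 on the log2 scale, and the mean with macroH2A1.1 siRNA was -4.52, so no fold change can be given.

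Fst encodes follistatin. Its log2 signal was 4.64, 2.84, 3.61 and 3.82 in macroH2A1.1 siRNA replicates 1 to 4, against 4.39, 3.27, 3.76 and 3.87 in control siRNA replicates 1 to 4. Both groups had the same order, with replicate 1 highest and replicate 2 lowest, and the groups overlapped. The difference was -0.10, with a 95% interval of -0.96 to 0.76 without pairing and -0.39 to 0.19 with it (limma adjusted p = 0.957 and 0.630). Proliferation genes moved with replicate 2: the summed relative signal of Mki67, Top2a, Ccnb1 and Cdk1 was 18.6 in macroH2A1.1 siRNA replicate 2 and 16.4 in control replicate 2, against 3.37 to 6.64 and 3.55 to 8.43 in the other samples of each group. Their part in the low Fst, Inhbb and Tgfb3 of replicate 2 was not tested.

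Fstl1 encodes a secreted glycoprotein of the SPARC family with a follistatin-like domain, which muscle cells release. It read 6.47, 6.60, 6.46 and 6.23 in macroH2A1.1 siRNA replicates 1 to 4, against 7.16, 7.43, 7.08 and 6.95 in control siRNA replicates 1 to 4. The groups were separate, with 0.35 between the highest macroH2A1.1 siRNA sample and the lowest control sample. Means were 6.44 ± 0.15 with macroH2A1.1 siRNA and 7.16 ± 0.20 with control siRNA (SD, n = 4 each). The difference of -0.72 had a limma adjusted p of 0.114 unpaired (SE 0.13) and 0.013 paired (SE 0.06). Its size hardly varied between pairs, at -0.69, -0.83, -0.63 and -0.73.

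Fstl3 encodes a follistatin relative that also binds activins and myostatin. It read 2.89, 3.41, 3.28 and 2.80 in macroH2A1.1 siRNA replicates 1 to 4, against 3.27, 3.91, 3.78 and 3.07 in control siRNA replicates 1 to 4. The groups overlapped, but the replicates kept the same order in both, and the macroH2A1.1 siRNA sample was the lower one of each pair, by -0.39, -0.50, -0.49 and -0.27. The difference of -0.41 had a limma adjusted p of 0.521 unpaired (SE 0.22) and 0.030 paired (SE 0.07).

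Ltbp1 encodes the latent TGF-beta binding protein 1. Its brighter probe read 2.70, 2.25, 2.61 and 2.35 in macroH2A1.1 siRNA replicates 1 to 4, against 2.53, 2.41, 2.54 and 2.26 in control siRNA replicates 1 to 4. The groups overlapped throughout. The difference was 0.04, with a 95% interval of -0.14 to 0.23 with pairing (limma adjusted p = 0.744). The other Ltbp1 probe stayed at background on all 8 arrays.

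**Figure D3:**
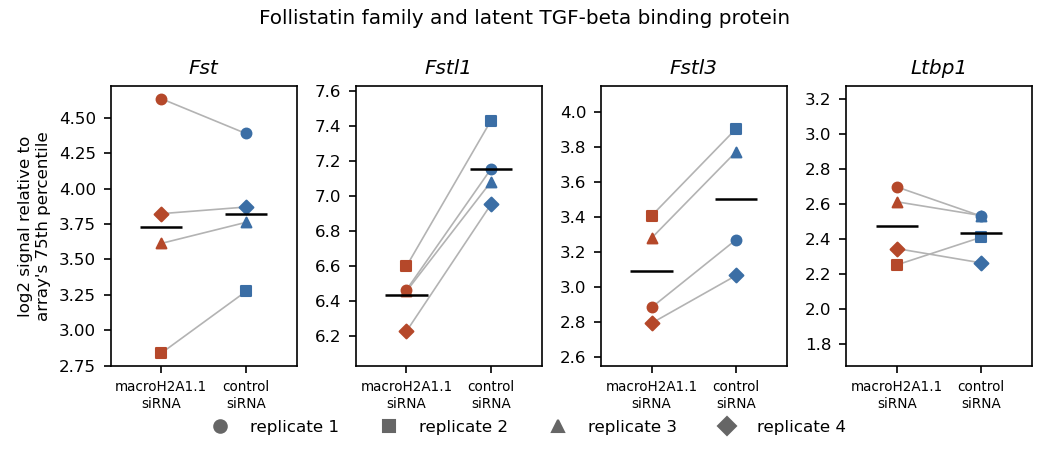
Log2 signal of Fst, Fstl1, Fstl3 and Ltbp1 in each sample, macroH2A1.1 siRNA left and control siRNA right, relative to the array's 75th percentile. Symbols mark replicate numbers, grey lines join samples of the same number, and bars are group means, on an axis of its own for each gene. Fstl1 separates the groups, at 6.23 to 6.60 with macroH2A1.1 siRNA and 6.95 to 7.43 with control siRNA, and the Fstl3 lines all slope the same way.

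Set against all genes, the paired fit called 1098 of 13824 genes (7.94%), of which 535 were lower (3.87%). Among the 9 tested members 3 were called, all lower. Without pairing limma called 3 genes in all (0.0217%) and 0 members, and the unadjusted p was under 0.05 for 2 members, Tgfb1 and Fstl1, against 12% of all genes. The groups did not overlap for these 2 members, both lower, against 7.95% of all genes, 3.7% lower and 4.25% higher. All 4 pairs moved the same way for 4 members, 3 of them lower and 1 higher, against 37.4% of all genes, 18.1% lower and 19.3% higher. For Tgfb1 and Fstl1 the exact permutation test (two-sided, n = 4 each) gave p = 0.0286, the smallest value that 70 regroupings allow, and for Tgfb2 and Fstl3 it gave p = 0.171. Within pairs the exact test cannot go below 0.125, which Tgfb1, Tgfb2, Fstl1 and Fstl3 reached. The median difference of the 9 tested members was -0.07, with 6 below 0, while the median over all genes was -0.0001. The members were chosen with earlier results of these data known, so these shares are a description.

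The paired calls rested on few arrays. All 3 were lost without pair 1 or pair 3, only Fstl1 passed without pair 2, and all 3 passed without pair 4. They were also lost when probes near background were kept, with limma adjusted p of 0.141 for Tgfb1, 0.0725 for Fstl1 and 0.122 for Fstl3. In the fit over 24988 single probes, Tgfb1 missed the threshold (limma adjusted p = 0.0561). The sign stayed negative for all 3 genes in every setting tried. Array rows 1 and 2 of the slide, each with both groups, gave differences of -0.76 and -0.68 for Fstl1, -0.61 and -0.35 for Tgfb1, and -0.44 and -0.38 for Fstl3. With the row as a block in place of the pairs, Fstl1 had a limma adjusted p of 0.0859. The summed interferon signal, most of it from Isg15, was 8.58, 68.6, 51.3 and 4.88 in pairs 1 to 4 with macroH2A1.1 siRNA. With control siRNA it was 4.05, 5.33, 6.36 and 3.01. In the same pairs the differences were -0.69, -0.83, -0.63 and -0.73 for Fstl1 and -0.63, -0.60, -0.50 and -0.21 for Tgfb1. For Fstl3 they were -0.39, -0.50, -0.49 and -0.27. The difference was smallest in pair 4 for Tgfb1 and Fstl3 and in pair 3 for Fstl1, and the part of the interferon genes was not tested.

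**Figure D4:**
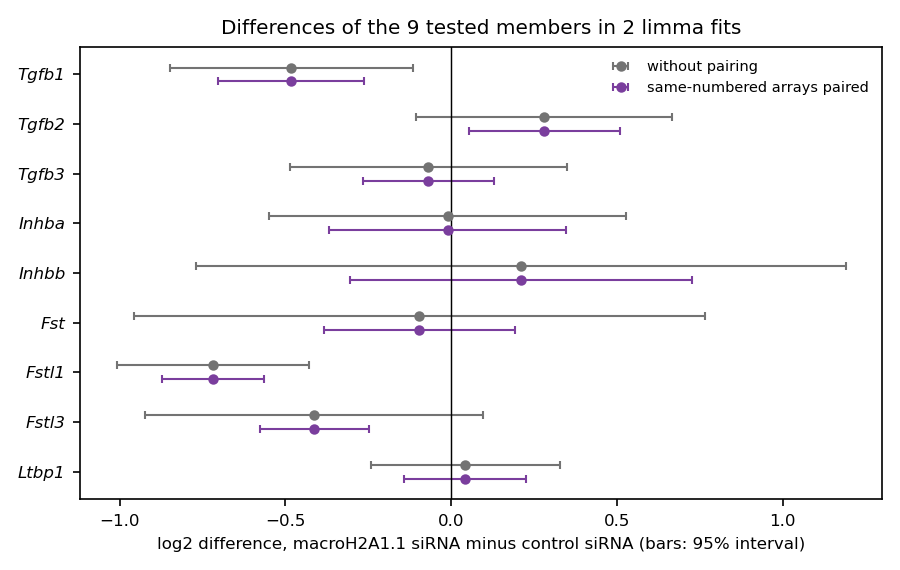
Log2 difference, macroH2A1.1 siRNA minus control siRNA, for the 9 tested members, with 95% intervals from the limma fit without pairing (grey) and with same-numbered arrays paired (purple). Pairing leaves the differences as they are and narrows the intervals. With pairing, that of Fstl1 runs from -0.87 to -0.57, that of Tgfb2 from 0.05 to 0.51 before adjustment (adjusted p = 0.121), and that of Ltbp1 spans 0.

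Other genes of the pathway were read from 4 lists chosen with earlier results of these data known. Their counts and medians beside those of all genes are thus a description and no independent result. Below, "fell" and "rose" refer to the paired fit, and none of the listed genes passed without pairing. Among the receptors, 1 of 10 tested genes fell and 0 rose, against 3.87% and 4.07% of all genes in the same fit. The list median was -0.11, against -0.0001 over all genes. The one that fell was Tgfbr3, for the co-receptor betaglycan, by 0.55 (SE 0.11, limma adjusted p = 0.042). The signalling receptors did not pass: Tgfbr1 read 0.04 (limma adjusted p = 0.734), Tgfbr2 -0.09 (0.463), Acvr1b 0.19 (0.122), Acvr2a -0.17 (0.217) and Acvr2b -0.20 (0.284) as differences. The Acvr1b groups did not overlap, though narrowly, at 0.0314 to 0.2393 with macroH2A1.1 siRNA and -0.1044 to 0.0285 with control siRNA. Acvr1c and Bambi stayed at background on all 8 arrays.

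Inside the cell, 3 of 12 genes fell and 0 rose, against 3.87% and 4.07% of all genes. The list median was -0.17, with 11 of 12 below 0. The 3 that fell are brakes on SMAD signalling that TGF-beta itself is known to induce. Smad7, an inhibitory SMAD, read -1.54 to -0.36 with macroH2A1.1 siRNA and -0.72 to 0.30 with control siRNA. The groups overlapped, yet each macroH2A1.1 siRNA sample was well below its partner, and Smad7 fell by 0.72 (SE 0.06, limma adjusted p = 0.013). Pmepa1, whose product keeps SMADs from the receptor, fell by 0.44 (limma adjusted p = 0.042), and Skil, which encodes the SMAD corepressor SnoN, fell by 0.39 (limma adjusted p = 0.043). The signal carriers Smad2, Smad3 and Smad4 read -0.08, -0.10 and -0.22 and did not pass. Other genes of the list, brakes among them, did not pass either. Smad6, a further inhibitory SMAD, read -0.56 (limma adjusted p = 0.079), Ski -0.14 (0.447) and Smurf1 -0.21 (0.147). Smurf2 read -0.095 (0.483), Tgif1 -0.12 (0.233) and Zfyve9 0.04 (0.784). The Smad4 and Smad6 groups did not overlap, both lower with macroH2A1.1 siRNA. Whether signalling through the SMADs changed was not tested.

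Of 17 tested genes for other ligands, latency, processing and binding, 4 fell and 1 rose, against 3.87% and 4.07% of all genes. The list median was -0.12. Ltbp2, a matrix protein of the LTBP family, fell by 0.71 (limma adjusted p = 0.028), in groups that did not overlap. Thbs1, for thrombospondin 1, which can release TGF-beta from its latent complex, fell by 0.68 (limma adjusted p = 0.020). Itgav, for the integrin subunit that pairs with others to activate latent TGF-beta, read 1.04, 1.17, 1.16 and 1.28 in macroH2A1.1 siRNA replicates 1 to 4, against 1.58, 1.63, 1.57 and 1.52 in control siRNA replicates 1 to 4. Its groups were well separated, and it fell by 0.42 (limma adjusted p = 0.034). Itgb8, one of its partners, rose by 0.69 (limma adjusted p = 0.028) at a low level, well above background on 4 macroH2A1.1 siRNA arrays and 3 control arrays. It thus entered the test only through the group where it was higher. With a filter that asked for all 8 arrays above background, Itgb8 was not tested. Inha, for the inhibin alpha subunit, fell by 0.43 (limma adjusted p = 0.048).

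Genes that TGF-beta is known to induce or regulate were lower in the median, at -0.30 over 13 tested genes, of which 4 fell, 0 rose and 12 were below 0. Over all genes the median was -0.0001, while 3.87% fell and 4.07% rose. Snai1, for a transcription factor of mesenchymal cells, read 1.91, 1.72, 2.18 and 2.34 in macroH2A1.1 siRNA replicates 1 to 4, against 2.62, 2.83, 2.76 and 2.64 in control siRNA replicates 1 to 4. Every macroH2A1.1 siRNA sample lay below every control sample, and Snai1 fell by 0.68 (SE 0.13, limma adjusted p = 0.045). Tgfbi, for a secreted matrix protein, fell by 0.57 (limma adjusted p = 0.036), and Lox, for the collagen crosslinking enzyme, by 0.33 (limma adjusted p = 0.049). Of 3 tested fibroblast markers 1 fell, Col1a2, by 0.40 (limma adjusted p = 0.045), while Pdgfra differed by 0.19 and Lum by -0.24 without passing. Their summed relative signal, most of it from Col1a2, was 216 to 265 with macroH2A1.1 siRNA and 249 to 375 with control siRNA; the part of such cells, and of the interferon genes, in these differences was not tested. Acta2 read 0.11, Cdkn1a -0.02 and Timp1 -0.12, and none of them passed. Of the 13 pathway genes called with pairing, 0 passed without pair 1 or pair 3 or with probes near background kept, 1 without pair 2 (Smad7) and 5 without pair 4, and all 13 kept their sign in each of these. Other processing ended fewer of these calls: Inha was lost with normexp, quantile normalization, median centring, the series values and the mean of probes, Itgb8 with normexp and the series values, Tgfbi and Lox with median centring, and Itgav and Skil with the mean of probes.

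**Figure D5:**
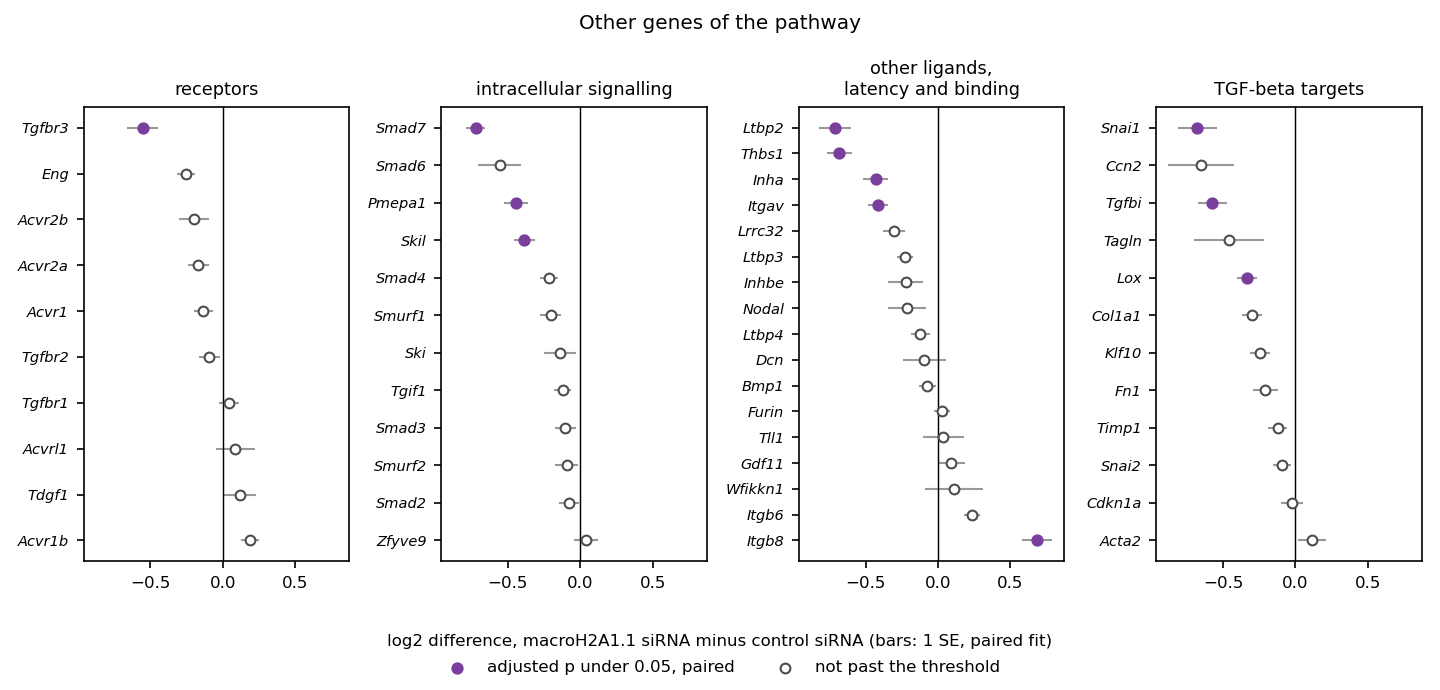
Log2 difference, macroH2A1.1 siRNA minus control siRNA, for tested genes of the 4 pathway lists, each on a row of its own. Bars are 1 SE of the paired fit and filled points passed at an adjusted p under 0.05; all filled points lie below 0 except Itgb8, which lies above it.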

How the data were processed

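Total RNA (500 ng) was labelled with Cy3, per the labels' protocols. Spot intensity values were extracted with Agilent Feature Extraction 10.7.3.1 (design 028005, build mm9) and background-subtracted, per the file headers. The authors' deposited series values are on a log2 scale, inferred from their fit to each array's log2 median signal (r between 0.9977 and 0.9996); every column has a median of 6.29, their background handling is not given in the sources used here, and they served as an alternative.

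From the log2 of the processed intensity, the 75th percentile over non-control spots of the same array was subtracted. Spots flagged as outliers were set missing and spots of 1 probe averaged. A probe was kept if it stood well above background on the 4 arrays of at least 1 group (24988), and each gene was given by its brightest kept probe (13824 genes; 3888 had several). Names came from RefSeq by accession for 27509 probes and otherwise by symbol or from the file. Of columns from other series, 0 were used.

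The test was limma 3.58.1 in R 4.3.3, two-sided, with Benjamini-Hochberg adjustment across all tested genes and a threshold of 0.05. It was fitted once unpaired, as the main test, and once with a block for the replicate number, as an alternative. The labels state no pairing. Deviations from group means of same-numbered samples correlated at 0.613, 0.552, 0.663 and 0.41 for numbers 1 to 4, and on that ground the numbers were taken as pairs. Samples of unlike numbers were not compared in this way, so the pairing is inferred from these data and not settled. Numbers 1 and 2 lie in slide row 1 and numbers 3 and 4 in row 2, with paired arrays side by side. Control siRNA arrays lie in slide columns 1 and 3 and macroH2A1.1 siRNA arrays in columns 2 and 4. An effect of the column therefore cannot be told apart from the difference between the groups. Whether pairs share a culture or only a place on the slide cannot be told apart. The fits were tested on simulated data in which same-numbered arrays share an effect, so the simulation cannot decide whether the pairing holds. Figures were drawn with matplotlib 3.10.9 in Python 3.11.15, with pandas 2.3.3.

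The members and lists were chosen with earlier results of these data known. All members are named; from each pathway list up to 5 genes past the threshold in either fit are named first, and others are given as values. One gene of the TGF-beta target list, counted in its totals, and 1 gene whose signal followed Fst are not reported here.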

Additional observations from a re-analysis of the deposited data

Results flagged for a closer look

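In 3 of 24 groups of 4 samples, 1 sample stood far from the other 3 by Dixon's test, which chance does in about 5% of groups. Tgfb1 read 1.68 in control siRNA replicate 3, above the other controls. Tgfb2 read 3.64 by its brighter probe in macroH2A1.1 siRNA replicate 4, below the others of that group. Inhbb read 2.37 in macroH2A1.1 siRNA replicate 2, below the others of that group, and control replicate 2 was also the lowest of its group at 2.83.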

How the results depend on the processing

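The number of arrays limits every value, and p-values reflect only the spread among these cultures, which may be technical. Without pairing, the count of genes past the threshold was 3; it was 1 with median centring, 10 with the slide row as a block, 7 with the slide column as a random block, 1098 with the replicate block and 0 to 11 when 1 array, or both of replicate 2 (a setting chosen after seeing the data), were left out. No slide column held both groups, so a column block cannot take a column effect out of the differences. The count of members was 0 in every setting without pairing and 3 with the replicate block. With the replicate block, the count of genes was 1816 with normexp background correction and quantile normalization, 1720 with the series values, 0 without a filter on dim probes and 0 to 576 when 1 pair was left out (0 without pair 1 or 3, 134 without pair 2, 576 without pair 4). The count of members with the block was 0 without that filter and 0 to 3 when 1 pair was left out, and 3 in the other settings over genes; over single probes Tgfb1 was lost. Signs turned only for members near 0, on leaving out arrays: without pairing the differences ran from -0.16 to 0.10 for Tgfb3, -0.15 to 0.18 for Inhba, -0.40 to 0.20 for Fst and -0.0312 to 0.12 for Ltbp1, and with pairing from -0.11 to 0.0089 for Tgfb3, -0.13 to 0.16 for Inhba and -0.21 to 0.0169 for Fst. Without both arrays of replicate 2 they were 0.0089, 0.16 and 0.0169 for Tgfb3, Inhba and Fst, with or without pairing. Without pairing, leaving out arrays also moved Inhbb between 0.0079 and 0.64 and Tgfb2 between 0.14 (without control replicate 4) and 0.37, and with pairing Inhbb between 0.0003 and 0.43. Mstn could be fitted only without the filter, against floor values, so no value is given. The causes were not tested.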

Other observations

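Over the 8 arrays, the signal of Vps52 and Zfp280c followed that of Fst most closely among the tested genes, with Pearson's r of 0.989 and 0.974 (n = 8 arrays, 13771 genes compared). These arrays share 1 slide and were taken as pairs by replicate number, so the values are a description and were not tested. The same was not computed for Mstn, which was at the floor on all 4 control arrays.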
